A study of Homo sapiens with 8 samples.

Results

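The miRNAs described here are a group of 10 mature miRNAs whose hairpin precursors can be made without the nuclease Drosha, and they were chosen by name. They are hsa-miR-320a, hsa-miR-320b, hsa-miR-320c, hsa-miR-320d and hsa-miR-320e (the miR-320 family), hsa-miR-484, and the mirtron arms hsa-miR-877-5p, hsa-miR-877-3p, hsa-miR-1225-5p and hsa-miR-1226-5p. Of the 2549 human miRNAs on the array, 9 of these 10 were found by name, and hsa-miR-877-3p was not analysed here. The cells were INA-6, a human multiple myeloma cell line that grows in the presence of interleukin-6. One group was treated with the solvent DMSO and the other with 1 µM of UNC1999, an inhibitor of the histone methyltransferase EZH2, for 120 hours, with 4 single-colour miRNA arrays in each group. The treatment protocol in the labels also names UNC2400, a compound related to UNC1999 but without its activity, as a control, whereas the sample titles and the study's text name DMSO, which is used here. The arrays used here measured mature miRNA only. The study's mRNA arrays and other assays of these cells were not analysed here, so EZH2 activity and host transcripts are not described. In RNA from a whole culture fewer cells with a miRNA and less of it per cell cannot be told apart.

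Most miRNAs are cut out of long transcripts by the Microprocessor, in which DGCR8 binds the hairpin and Drosha cleaves its base, and the hairpin is then exported and cut by Dicer. The hairpins of the miR-320 type, known best for miR-320a, and that of miR-484 are instead made directly as short capped transcripts, so Dicer is the first nuclease they need. Mirtrons are short introns that fold into a hairpin once the spliceosome has removed them and the lariat has been opened. miR-1225 is a less clear case, since it can also be made without splicing by a route that uses Drosha but not DGCR8. EZH2 places the repressive mark H3K27me3 on chromatin. Transcription was not measured on these arrays.

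The mature sequences show how close the miR-320 members are, which matters because array probes must tell them apart. They were taken from RefSeq (GRCh38.p14), where 9 of the 10 members matched. The exception was miR-320a, whose sequence and seed are not given here. The sequences are printed 5′ to 3′ in lower case with the seed, bases 2 to 8, in capitals.
hsa-miR-320b: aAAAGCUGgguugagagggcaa
hsa-miR-320c: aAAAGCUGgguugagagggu
hsa-miR-320d: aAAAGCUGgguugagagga
hsa-miR-320e: aAAGCUGGguugagaagg
hsa-miR-484: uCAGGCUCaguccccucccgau
miR-320b, miR-320c and miR-320d had the same seed, AAAGCUG, and differed only toward the 3′ end. Counted from 1 at the 5′ end of miR-320b, miR-320c had the substitution C20U and ended there, and miR-320d had G19A and ended there. miR-320c and miR-320b therefore shared their first 19 bases, and miR-320d shared 18 with either. miR-320e began a base later than the other members, so its seed was shifted to AAGCUGG, and it had G17A. The seed of miR-484, CAGGCUC, had no relation to these.

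Several of these sequences are encoded more than once in the genome. miR-320b lies at chr1:116671787-116671808 on the plus strand (MIR320B1) and at chr1:224257049-224257070 on the minus strand (MIR320B2), the latter within the span of NVL. miR-320c lies at chr18:21683559-21683578 (MIR320C1), within the span of ABHD3, and at chr18:24321716-24321735 (MIR320C2), within that of OSBPL1A, both on the plus strand. miR-320d lies at chr13:40727828-40727846 (MIR320D1) and chrX:140926172-140926190 (MIR320D2), both on the minus strand and within no other gene of the table. miR-320e lies at chr19:46709294-46709311 on the minus strand, within PRKD2, and miR-484 at chr16:15643301-15643322 on the plus strand. The array reads the mature sequence, so signal from MIR320C1 and MIR320C2, or from the other duplicated genes, could not be separated.

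The mirtron hairpins are shown whole because their ends are those of an intron. They are printed 5′ to 3′ with the first and last 2 bases in capitals, and each 5p arm starts at the first base of its hairpin.
MIR877: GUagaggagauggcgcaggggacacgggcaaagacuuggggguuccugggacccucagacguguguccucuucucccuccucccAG
MIR1225: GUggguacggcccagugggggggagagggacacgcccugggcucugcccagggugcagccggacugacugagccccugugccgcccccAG
MIR1226: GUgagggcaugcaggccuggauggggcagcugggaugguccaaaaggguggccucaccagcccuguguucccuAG
All 3 hairpins began with GU and ended with AG, the letters of the splice sites of most introns. Of the 1560 hairpins read from the same table, 36 (2.31%) had both ends, whereas 0 of the 8 hairpins of miR-320b to miR-320e and miR-484 did. MIR877 lies at chr6:30584332-30584417 on the plus strand within ABCF1, MIR1225 at chr16:2090195-2090284 on the minus strand within PKD1, and MIR1226 at chr3:47849555-47849629 on the plus strand within DHX30. ABCF1 encodes a factor of translation initiation, PKD1 encodes polycystin-1 and DHX30 encodes an RNA helicase.
The mature 5p arms with their seeds in capitals were the following.
hsa-miR-877-5p: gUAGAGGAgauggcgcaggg
hsa-miR-1225-5p: gUGGGUACggcccagugggggg
hsa-miR-1226-5p: gUGAGGGCaugcaggccuggaugggg
They were rich in G, with 11 of 20 bases in miR-877-5p, 13 of 22 in miR-1225-5p and 14 of 26 in miR-1226-5p, whereas miR-484 had 4 of 22. The miR-320 members lay between these, with 9 of 22 in miR-320b, 9 of 20 in miR-320c, 8 of 19 in miR-320d and 8 of 18 in miR-320e. None of the 3 shared its seed with another mature miRNA of the table.

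All 8 arrays lay on 1 slide. Signals were scaled by the 75th percentile of each array over the 346 miRNAs detected on all 8 arrays, which was between 296 and 559 intensity units on the DMSO arrays and between 534 and 729 on the UNC1999 arrays, so scaling lowered UNC1999 values relative to DMSO values. Below, a signal is a log2 scaled intensity, and a miRNA is called higher or lower where the limma adjusted p was at most 0.05 and the fold change at least 1.2. Within each group the arrays resembled each other in pairs, namely DMSO replicates 1 and 4, DMSO replicates 2 and 3, UNC1999 replicates 1 and 3, and UNC1999 replicates 2 and 4. Within these pairs the correlation of log2 signals over miRNAs detected on all arrays was between 0.997 and 0.999, and between the pairs of a group it was between 0.987 and 0.991. DMSO replicates 2 and 3 detected 369 and 370 miRNAs, against 474 to 500 on the other arrays. Their lowest scaled signals of a detected miRNA were 17.6 and 23.1, against 6.21 to 10.2, which bears on every detection contrast of faint miRNAs below. The sample titles call the 4 arrays of a group biological replicates, and each was counted as a sample. Whether alike arrays came from separate cultures was not tested, so values with alike arrays averaged are given beside the results. The lineage of the cells was checked with 5 miRNAs of blood cells, of which miR-142-3p, miR-142-5p, miR-150-5p and miR-223-3p were detected on all 8 arrays and miR-155-5p on 2. Of 9 miRNAs of liver, neuron, muscle, epithelium and endothelium, 8 were detected on 0 arrays and miR-9-5p on 8.

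UNC1999 treatment was followed by opposite changes within the group. miR-320c and miR-1225-5p were called higher. The 4 other miR-320 members and miR-484 were called lower, and all 5 turned to positive values with no scaling or with scaling to spike-in RNAs. Of the 10 members 9 had values and 8 passed the filter on detection, of which 7 were detected on all 8 arrays. All of these 7 were called, 2 higher and 5 lower. The eighth, miR-877-5p, entered the test only through the UNC1999 arrays, where it was higher, so its call is set by the filter and is not counted as support.

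Calls were the common outcome on these arrays. Over all 456 tested miRNAs 70.6% were called, 36% higher and 34.6% lower. Of the 346 miRNAs detected on all arrays, as the 7 members were, 246 were called, 108 higher and 138 lower. The median log2 fold change of the 7 members was -0.36 and that of the 346 miRNAs was -0.14. The nearly even split over all 456 tested miRNAs held for the main scaling, and the 346 leaned toward lower. With no scaling 234 of the 456 were called higher and 4 lower, with the spike-ins 295 and 7, and with normexp background correction 54 and 230. The 2 groups did not overlap for 6 of the 7 members, beside 233 of the 346 miRNAs detected on all arrays and 65.4% of all tested miRNAs. With no filter on detection, where all 2549 miRNAs entered the fit, 195 miRNAs were called, among them miR-320b, miR-320c and miR-320d, and the other tested members were not.

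miR-320c was the only member of its family called higher under the main scaling. The study reported miR-320c as raised on these arrays, and by qPCR of its primary and mature forms in INA-6 and LP-1 cells. It also examined EZH2 and H3K27me3 at a gene of this miRNA, by chromatin immunoprecipitation with primers listed for miR-320c2. H3K27me3 was examined there in patients' myeloma cells too. With scaling to spike-in RNAs miR-320a and miR-320e were called higher as well. The log2 signal of miR-320c was 9.55, 9.53, 9.67 and 9.46 on DMSO replicates 1 to 4 and 10.01, 10.07, 10.07 and 10.13 on UNC1999 replicates 1 to 4. Every UNC1999 array was above every DMSO array. The log2 fold change was 0.51 (SE 0.09 and adjusted p = 0.000982 in limma), with a 95% interval from 0.31 to 0.72 and a fold of 1.43. The values within a group lay close together, with an SD of 0.09 for DMSO and 0.05 for UNC1999 (n = 4 each). With the alike arrays averaged, which leaves 2 values in each group, the adjusted p was 0.0603.

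miR-320a, the founding member of the family, moved the other way under the main scaling, though not with no scaling or the spike-ins. Its log2 signal was 7.94, 8.12, 8.06 and 7.94 on the DMSO arrays and 7.67, 7.91, 7.58 and 7.71 on the UNC1999 arrays. The groups did not overlap but came close, with DMSO replicates 1 and 4 just above UNC1999 replicate 2. Its log2 fold change of -0.29 (SE 0.10 and adjusted p = 0.0266 in limma) was the smallest of the 8 tested members, a fold of 1.23 beside the limit of 1.2. Leaving out a single array ended the call for DMSO replicate 2, DMSO replicate 3 and UNC1999 replicates 1, 3 and 4, with limma adjusted p between 0.0534 and 0.0816. The array row on the slide as a block ended it too (limma adjusted p = 0.0605), as did averaging the alike arrays (limma adjusted p = 0.24). Normexp background correction and the 75th percentile taken over all human miRNAs also ended it, with log2 fold changes of -0.24 and -0.07.

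miR-320b, which shares 19 bases with miR-320c, fell as well, with the same exception for no scaling and the spike-ins. Its signal on the log2 scale was 8.89, 9.04, 9.03 and 8.89 on the DMSO arrays and 8.50, 8.70, 8.39 and 8.52 on the UNC1999 arrays. The groups were clear of each other, and the log2 fold change was -0.43 (SE 0.10 and adjusted p = 0.00374 in limma). The call was lost with the alike arrays averaged (limma adjusted p = 0.0965) and with the percentile over all human miRNAs, where the log2 fold change was -0.21 (limma adjusted p = 0.185).

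miR-320d and miR-320e, the shorter members, gave nearly the same values of change, also negative except with no scaling and the spike-ins. The log2 signal of miR-320d was 8.995, 9.12, 9.06 and 9.05 on the DMSO arrays and 8.72, 8.88, 8.51 and 8.66 on the UNC1999 arrays. That of miR-320e was 8.60, 8.71, 8.70 and 8.61 on the DMSO arrays and 8.32, 8.49, 8.11 and 8.28 on the UNC1999 arrays. In both, UNC1999 replicate 2 was the highest and replicate 3 the lowest treated array, and neither overlapped with DMSO. The log2 fold changes were -0.36 for each (limma adjusted p = 0.0099 for miR-320d and 0.0115 for miR-320e). Both calls were lost with the alike arrays averaged (limma adjusted p = 0.146 and 0.154), and that of miR-320e also with no filter on detection (limma adjusted p = 0.0578). Normexp background correction ended both too, with log2 fold changes of -0.22 and -0.24, as did the percentile over all human miRNAs, with -0.14 and -0.13. UNC1999 replicates 2 and 3 were also the highest and lowest treated arrays for miR-320a and miR-320b, but not for miR-320c.

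**Figure D1:**
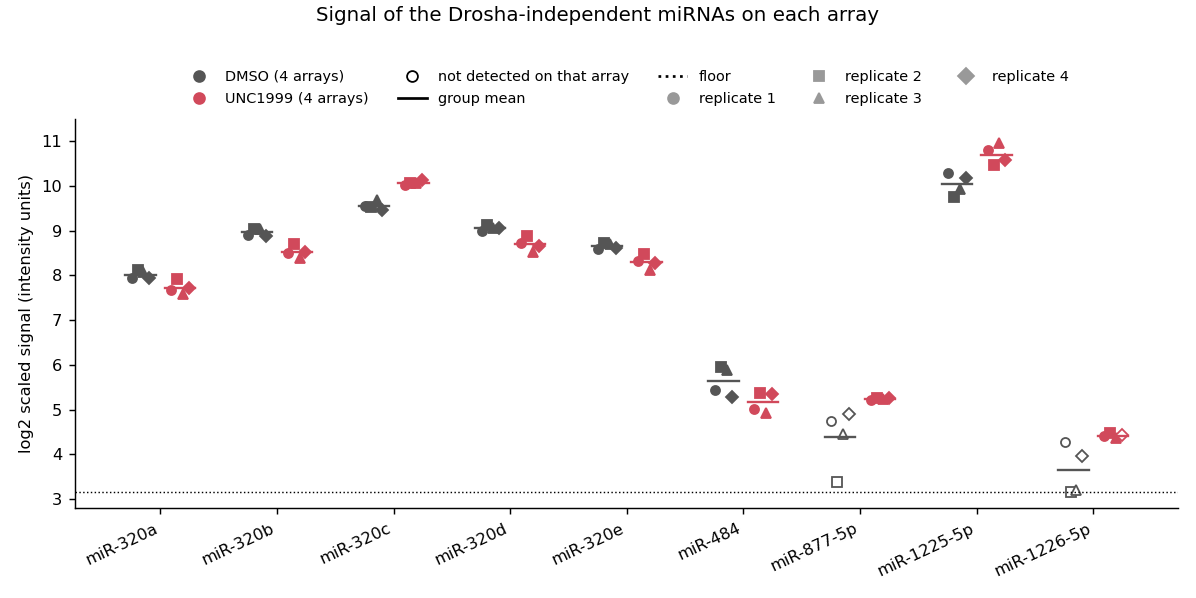
The plot of signal by array gives the log2 scaled signal (vertical axis) of the 9 members with values on each of the 8 arrays, with the replicate as the shape of the point, group means as bars, open points where the miRNA was not detected, and the floor of 3.17 as a dotted line. miR-320c, miR-877-5p and miR-1225-5p sit higher on the UNC1999 arrays, the other miR-320 members sit lower on this scale (not with no scaling or the spike-ins), and miR-484 overlaps.

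Each miR-320 member was read by 2 probes with 10 spots each, a brighter and a dimmer one, and the array file gives no probe sequence. The 2 probes of miR-320c both rose, but by unequal amounts. The dimmer probe read 7.91, 7.72, 8.05 and 7.72 on the DMSO arrays and 8.73, 8.74, 8.83 and 8.88 on the UNC1999 arrays on the log2 scale. Its log2 fold change was 0.95 (SE 0.08 and adjusted p = 0.000587 in limma over 982 probes). The brighter probe read 8.996, 9.04, 9.11 and 8.94 on the DMSO arrays and 9.25, 9.34, 9.27 and 9.33 on the UNC1999 arrays. Its log2 fold change was 0.27 (SE 0.04 and adjusted p = 0.00243 in limma), so the size of the rise depended on the probe, while its direction did not.

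The other members of the family had lower values on both probes under the main scaling. The brighter probes, in the order miR-320a, miR-320b, miR-320d, miR-320e, had log2 fold changes of -0.32, -0.43, -0.38 and -0.38 and were all called. Of the dimmer probes, that of miR-320b at -0.46 was called, and those of miR-320a, miR-320d and miR-320e, at -0.21, -0.27 and -0.21, were not. Over all 8 tested members 9 of 18 probes were called, 4 of the 18 being those of miR-877-5p, which lay at the probe floor on all arrays, and over all 982 probes of tested miRNAs 43.2% were.

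Within an array, a ratio of the dimmer to the brighter probe of a miRNA does not depend on any factor that multiplies the whole array. This ratio was computed after the probe values had been seen and is given without a test. For miR-320c its log2 was -1.17 ± 0.12 in DMSO and -0.50 ± 0.07 after UNC1999 (SD, n = 4 each), a change of 0.67. In the rest of the family the change was between -0.04 for miR-320b and 0.17 for miR-320e, with 0.11 for miR-320a and 0.12 for miR-320d. The ratios of miR-320a, miR-320d and miR-320e thus moved in the direction of miR-320c by smaller amounts. The groups did not overlap for miR-320c, miR-320a and miR-320e, and overlapped for miR-320b and miR-320d. How often such ratios overlap over all miRNAs was not computed. The 2 probes of miR-1225-5p gave a change of -0.03.

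**Figure D2:**
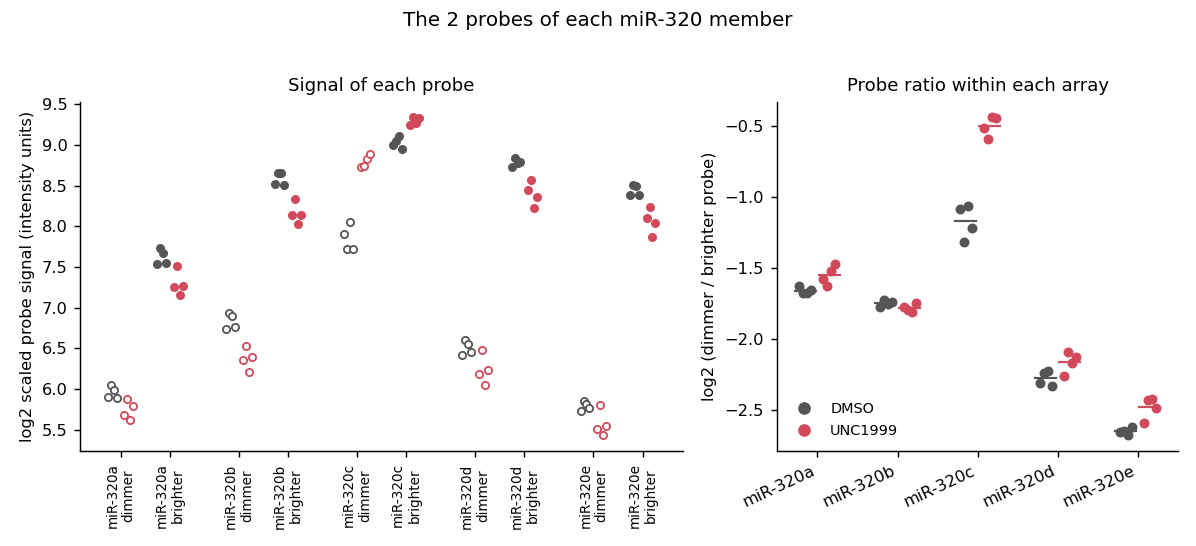
The plot of the miR-320 probes gives, on the left, the log2 scaled signal of the dimmer (open) and brighter (filled) probe of each member on 4 DMSO and 4 UNC1999 arrays, and, on the right, the log2 ratio of dimmer to brighter probe within each array with group means as bars. The ratio of the miR-320c probes moves from -1.17 to -0.50, and those of the other members move by at most 0.17.

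The ratio of miR-320c to its closest relative was the contrast that scaling by a single factor per array cannot change. The log2 ratio of miR-320c to miR-320b was 0.66, 0.49, 0.65 and 0.57 on the DMSO arrays and 1.51, 1.37, 1.68 and 1.61 on the UNC1999 arrays. It was higher on all 4 UNC1999 arrays, and the change was 0.95 (exact permutation test, two-sided, p = 0.0286, the smallest that 4 against 4 arrays allow). A level of such a ratio depends on the probes, so only its change is read. The ratios of miR-320c to miR-320a, miR-320d and miR-320e changed by 0.81, 0.88 and 0.87, again with no overlap between groups. Under the main scaling miR-320c and each of these relatives, miR-320b included, already separated in opposite directions. The lack of overlap and the smallest p followed from that and are not further support. With the alike arrays averaged the change of the ratio to miR-320b could not reach a p below 0.333 in an exact permutation test.

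Among the members that fell, the ratios moved far less. Of the 6 ratios between miR-320a, miR-320b, miR-320d and miR-320e, the changes lay between -0.14, for miR-320b to miR-320a, and 0.08, for miR-320e to miR-320b. These 2 did not overlap between groups, and the other 4 did. The ratio of miR-320e to miR-320d was -0.40 ± 0.03 in DMSO and -0.39 ± 0.01 after UNC1999 (SD, n = 4 each), a change of 0.0066.

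**Figure D3:**
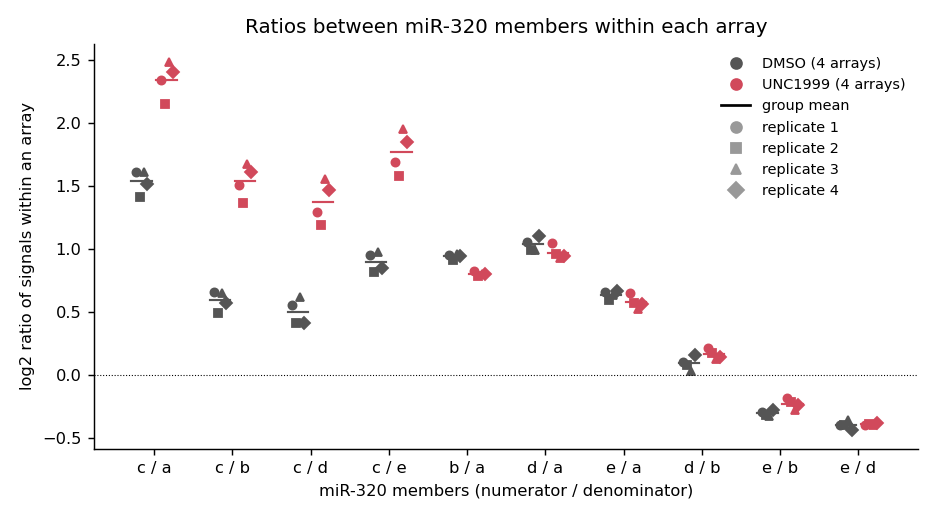
The plot of the miR-320 ratios gives the log2 ratio of signals within an array (vertical axis) for the 10 pairs of family members, with replicates as shapes and group means as bars. The 4 ratios with miR-320c as numerator rise by 0.81 to 0.95 after UNC1999, and the other 6 change by -0.14 to 0.08.

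miR-484 was dim, and its call was the least firm of the group. Its log2 signal was 5.44, 5.94, 5.88 and 5.28 on the DMSO arrays and 5.02, 5.38, 4.93 and 5.35 on the UNC1999 arrays. DMSO replicate 4 lay below UNC1999 replicates 2 and 4, so the groups overlapped, and the arrays fell into the pairs described above. The log2 fold change was -0.46 (SE 0.17 and adjusted p = 0.0319 in limma), and the exact permutation test, two-sided, gave p = 0.114. The call was lost without DMSO replicate 2 or 3 or UNC1999 replicate 1 or 3, with limma adjusted p between 0.0809 and 0.0886. It was also lost with the array row as a block (limma adjusted p = 0.066), with quantile normalization (0.055) with the authors' processed values (0.132) and with the alike arrays averaged (0.142).

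Before scaling, the intensity of miR-484 was between 33.6 and 41.8 on the DMSO arrays and between 42.1 and 56.7 on the UNC1999 arrays. The unscaled values were thus higher after UNC1999 on every array, and the fall rests on the scaling. Of its 2 probes, 1 was above background on 3 DMSO and 4 UNC1999 arrays, and the other on none. Neither probe was called, with log2 fold changes of -0.42 and -0.23.

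Among the mirtron arms, miR-1225-5p gave the clearest values. It gave a log2 signal of 10.29, 9.76, 9.93 and 10.17 on the DMSO arrays and 10.79, 10.46, 10.95 and 10.58 on the UNC1999 arrays. The groups did not overlap, and the higher arrays in each were DMSO replicates 1 and 4 and UNC1999 replicates 1 and 3, again the pairs. The log2 fold change was 0.66 (SE 0.15 and adjusted p = 0.0033 in limma), and its 2 probes gave 0.67 and 0.64. With the alike arrays averaged its limma adjusted p was 0.0494, and with no filter on detection the call was lost (limma adjusted p = 0.0667).

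miR-877-5p was at or below the detection limit in DMSO (0 of 4 arrays) and was detected on each of the 4 UNC1999 arrays. DMSO replicates 2 and 3 detected the fewest miRNAs of all arrays, and miR-877-5p was undetected on DMSO replicates 1 and 4 too. Its log2 signal was 4.75, 3.38, 4.46 and 4.91 on the DMSO arrays and 5.22, 5.26, 5.24 and 5.25 on the UNC1999 arrays. All treated arrays lay above all DMSO arrays, and DMSO replicate 2 was the lowest by over 1 log2 unit. Because it was not detected in DMSO, its fold is given as a bound, at least 1.58-fold higher after UNC1999. For this, each DMSO array was given the higher of its lowest detected signal and the measured value. The bound applies only to the main processing with all arrays, and not to the other settings below. The measured log2 means were 4.38 and 5.24, a difference of 0.87, and without DMSO replicate 2 the difference was 0.54. No test is given, because miR-877-5p passed the filter only through the group where it was high, and with no filter on detection it was not called (limma adjusted p = 0.26).

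The signal of miR-877-5p was near the background of the arrays. None of its 4 probes, of 5 spots each, was well above background on any array, and its unscaled sum was between 7.03 and 32.5 intensity units in DMSO and between 39.4 and 53.3 after UNC1999. With normexp background correction its log2 fold change was -0.36 instead of 0.87, a change of direction.

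miR-1226-5p was fainter still and was not tested, since no DMSO array and 3 UNC1999 arrays detected it. On the log2 scale it read 4.27, 3.17, 3.20 and 3.97 on the DMSO arrays and 4.40, 4.47, 4.36 and 4.44 on the UNC1999 arrays. DMSO replicate 2 was at the floor of 3.17, and all UNC1999 arrays lay above all DMSO arrays. The difference of means was 0.77, and -0.28 with normexp background correction. Neither of its 2 probes was well above background on any array.

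The mirtron arms were then set against the capped hairpin within arrays. The log2 ratio of miR-1225-5p to miR-484 was 4.40 ± 0.55 in DMSO and 5.53 ± 0.44 after UNC1999 (SD, n = 4 each), a change of 1.12 with no overlap. The ratio of miR-877-5p to miR-484 changed by 1.33 and is given as a value only, since miR-877-5p was not detected in DMSO. It changed by 0.07 with normexp background correction and by 3.50 in the authors' processed values, where undetected miRNAs have a far lower floor. The ratio of miR-1225-5p to miR-320c, both called higher, changed by 0.14 with overlap between groups, and that of miR-320a to miR-484, both called lower, by 0.17 with overlap.

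The other arms of the first mammalian mirtrons, a list of 20 arms from miR-1224 to miR-1238, showed both directions too. Of the 20, 19 had values, 9 passed the filter, 7 were detected on no array and 3 on too few. All 10 hairpins of the list found in the RefSeq table had the GU and AG ends. Of the 9 tested arms 6 were called, 2 higher and 4 lower, against 70.6% of all tested miRNAs, and their median log2 fold change was -0.23.

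The 2 called higher were both 5p arms. miR-1229-5p, within MGAT4B, rose from 8.53 ± 0.17 to 9.26 ± 0.12 (SD, n = 4 each), which is 0.73 on the log2 scale (limma adjusted p = 0.000529). miR-1227-5p, within PLEKHJ1, rose from 6.91 ± 0.31 to 7.45 ± 0.15, a log2 fold change of 0.53 (limma adjusted p = 0.0117).

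The 4 called lower were 3 3p arms and 1 5p arm. miR-1233-5p, within the related genes GOLGA8A and GOLGA8B, fell by 0.71 on the log2 scale (limma adjusted p = 0.000402). miR-1237-3p, within RPS6KA4, and miR-1238-3p, within ATG4D, fell by 0.56 and 0.57 (limma adjusted p = 0.00488 and 0.011), the latter with overlapping groups. miR-1234-3p fell by 0.46 (limma adjusted p = 0.00712). miR-1224-5p at 0.13, miR-1228-3p at -0.23 and miR-1236-5p at 0.21 were not called. miR-1236-5p was detected on 2 DMSO arrays and 4 UNC1999 arrays, so it entered the test only through the UNC1999 arrays, where its mean was higher. The directions of these arms followed the scaling, as those of all miRNAs did. With the spike-ins 5 arms of the list were called, all higher, beside 295 higher and 7 lower of all 456, and with normexp 8 were called, 1 higher and 7 lower, beside 54 and 230. With the alike arrays averaged 2 arms were called, 1 in each direction, beside 156 of all.

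**Figure D4:**
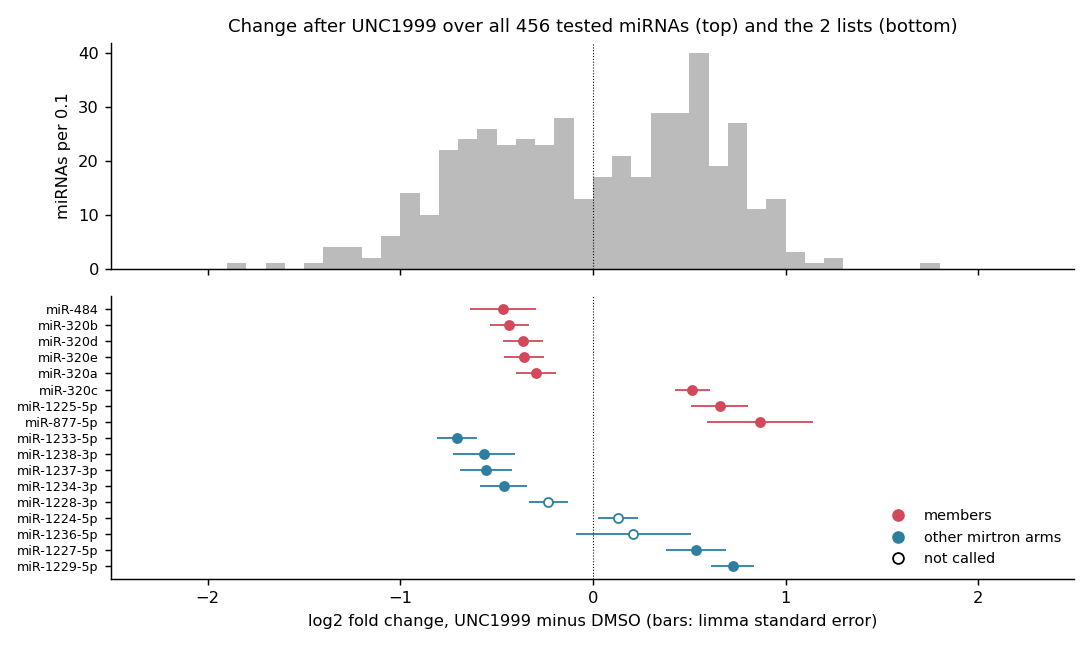
The plot of changes gives, above, the number of miRNAs in steps of 0.1 log2 fold change for all 456 tested miRNAs and, below, the log2 fold change of the 8 tested members and 9 tested mirtron arms with the limma standard error as bars and open points where not called. The members lie between -0.46 and 0.87 and on both sides of 0.

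How the arrays were brought to a common scale set the sign of the 5 lower members. Other scalings moved the median of all tested miRNAs from 0.01 to 0.23 with the percentile taken over all human miRNAs, 0.10 with quantile normalization, 0.67 with no scaling and 0.78 with the labelling spike-ins, RNAs added in equal amount to each sample. With no scaling the log2 fold changes of miR-320a, miR-320b, miR-320d, miR-320e and miR-484 were 0.40, 0.26, 0.34, 0.34 and 0.23, and with the spike-ins 0.52, 0.38, 0.45, 0.46 and 0.35, all positive. With the percentile over all human miRNAs none of the 5 was called, with values between -0.24 and -0.07. Under the main scaling the 5 lay between -0.33 and -0.16 relative to the median of the miRNAs detected on all 8 arrays. Relative to the median of all tested miRNAs, which include some detected throughout only 1 group, the 5 stayed below 0 under each of the scalings above, between -0.55 and -0.26.

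Normexp background correction was the exception to the last statement. It moved the median to -0.29, and relative to that median the members miR-320a, miR-320b, miR-320d and miR-320e lay at 0.05, 0.01, 0.07 and 0.05 and miR-484 at -0.14. miR-320c and miR-1225-5p were higher under all of these settings, with log2 fold changes of at least 0.43 and 0.56 over all 23 alternatives, and relative to the median they were at 0.40 or more and 0.58 or more under the scalings and at 0.85 and 1.02 with normexp.

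**Figure D5:**
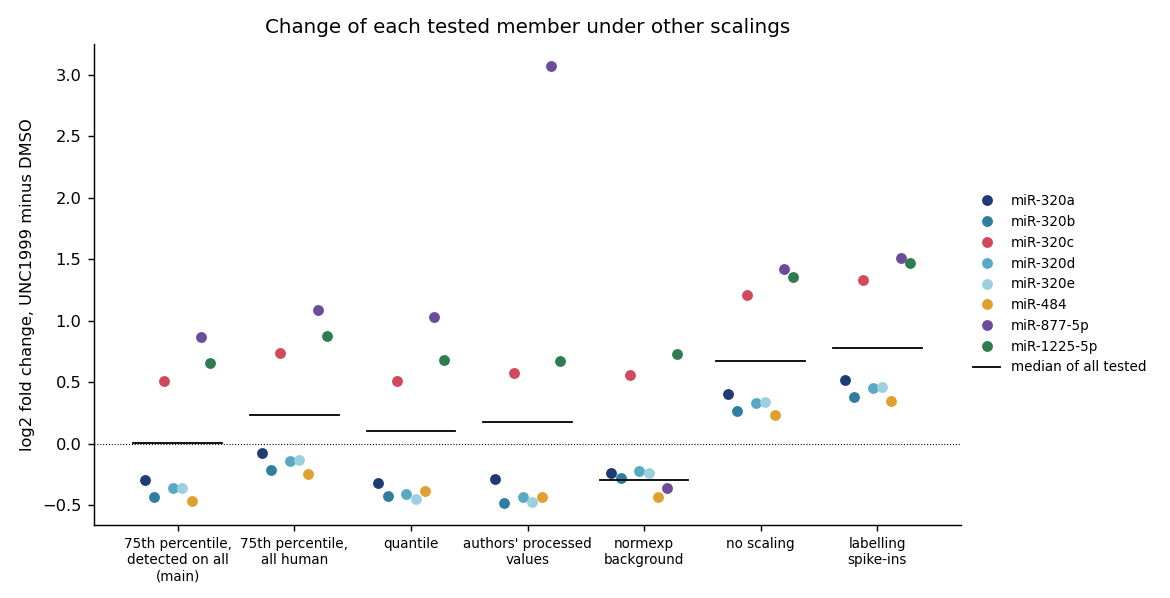
The plot of scalings gives the log2 fold change of the 8 tested members (points) and the median of all tested miRNAs (bars) under the main setting, 3 other scalings, no scaling, normexp background correction and the authors' processed values. miR-320c and miR-1225-5p stay above 0 throughout, whereas miR-320a, miR-320b, miR-320d, miR-320e and miR-484 move from below to above 0 with no scaling and with the spike-ins.

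The position of the arrays on the slide was unequal between groups, with 3 DMSO arrays and 1 UNC1999 array in row 1 and 1 and 3 in row 2. The direction of each of the 8 tested members was the same in both rows. The difference of miR-320c was 0.61 in row 1 and 0.38 in row 2, that of miR-320b -0.42 and -0.50, and that of miR-1225-5p 0.50 and 0.80. That of miR-484 was -0.20 and -0.77, and that of miR-877-5p 0.90 and 0.78.

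The miRNAs whose pattern over the 8 arrays came nearest were found for 3 members by the root mean square difference of centred log2 signals. For miR-320c these were miR-3679-5p, at 0.06, miR-4298 and miR-6727-5p, with log2 fold changes of 0.48, 0.45 and 0.47. For miR-484 they were miR-197-3p, at 0.07, miR-1281 and miR-4672, with -0.53, -0.52 and -0.69. For miR-877-5p they were miR-718, at 0.18, miR-7106-5p and miR-6769a-5p, with 0.71, 0.87 and 0.58.

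The mature sequence of miR-320a was not available, so its seed was not compared. Among those that were, the seed of miR-320b, miR-320c and miR-320d was carried by 1 further mature miRNA, miR-4429. None of the DMSO arrays and all 4 UNC1999 arrays detected it, with log2 means of 3.54 and 3.97, near the floor. It too entered the test only through the UNC1999 arrays, and no test is given. The seed of miR-484 was shared with miR-3155a and miR-3155b, which were detected on no array.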

How the data were processed

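Mature miRNA was measured on 8 single-colour Agilent human miRNA arrays (INA-6, 4 DMSO and 4 UNC1999). The authors deposited scanner output made with Agilent Feature Extraction 10.7.3.1 (submitters' processing notes): a background-subtracted intensity for each of 53144 spots, with outlier marks and detection calls, not scaled between arrays, and annotated to hg19. A deposited table of log2 values, of unstated normalization and with undetected miRNAs near the log2 of 0.1, served only as an alternative. The study's methods name GeneSpring and a moderated test, and not the scaling or floor.

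The mean processed intensity per probe, without outlier spots (between 1392 and 2292 per array), was summed per miRNA, divided by the 75th percentile of the array over the 346 miRNAs detected on all 8 arrays, raised to a floor of 8.98 and put on the log2 scale. That percentile moves with bright miRNAs that change, and the floor understates changes of dim miRNAs. The linear model of limma 3.58.1 (lmFit, eBayes, R 4.3.3) took in the 456 miRNAs detected on all DMSO arrays or on all UNC1999 arrays, with Benjamini-Hochberg adjustment over all of them. The 982 probes of these miRNAs were fitted likewise, with 16.9 as the floor, taken from the lowest scaled probe signals above background (median of the 8 arrays). The restriction to probes above background was set on seeing the files, since the lowest signals were near or below 0. Single values had exact permutation tests. Replicates were the labelled samples, and the number of arrays limits the precision.

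The members and the mirtron list were chosen with earlier results of these data known. All members, the listed arms that passed the filter, and the 3 miRNAs most like each of miR-320c, miR-484 and miR-877-5p were to be named. Alternatives covered scaling, normexp with an offset of 50, probe summary, floor, filter, threshold, a paired t-test, replicate and row blocks, and leaving out each array. The study's methods name a paired t-test in a separate section on statistics, and the moderated test for the arrays. The alike arrays as a block or averaged were added after seeing the data. On simulated arrays with independent errors, the fit was tested with the array factors known, and the percentile scaling with no miRNA changed. With many simulated miRNAs changed, the unchanged ones moved with the percentile.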

Additional observations from a re-analysis of the deposited data

Results flagged for a closer look

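Among 64 groups of 4 arrays (each member, each tested mirtron arm and each ratio, for DMSO and UNC1999 separately), 2 held an array far from the other 3 by Dixon's test, where chance flags about 1 in 20. The log2 signal of miR-1228-3p on UNC1999 replicate 2 was 6.14, against 6.32 to 6.33 on the other UNC1999 arrays. That of miR-1234-3p on UNC1999 replicate 1 was 5.71, against 5.65 to 5.66. No member of the miR-320 family, miR-484 or the mirtron members was among them.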

How the results depend on the processing

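The direction of miR-320c and miR-1225-5p was the same under all 23 alternatives run for them. Member counts here include miR-877-5p wherever it was called, although its call is set by the filter and is not counted as support. With the alike arrays averaged, 2 of the members (miR-1225-5p and miR-877-5p), 2 of the mirtron arms, 156 of all miRNAs and 1 member probe were called. The exact permutation p of the ratio of miR-320c to miR-320b, at 0.95 as before, was then 0.333. With no filter on detection the counts were 3, 3, 195 and 4, and with a paired t-test 4, 2 and 152. Members called were 3 with no scaling (238 of all 456 miRNAs), 3 with the percentile over all human miRNAs (280), with 4 probes in each, 5 with the spike-ins (302), 5 with normexp (284) and 4 at an adjusted p of 0.01 (232). Each of these counts except the last included miR-877-5p, with normexp as a lower miRNA. With no scaling, miR-320a, miR-320b, miR-320d, miR-320e and miR-484 turned to 0.40, 0.26, 0.34, 0.34 and 0.23, and with the spike-ins to 0.52, 0.38, 0.45, 0.46 and 0.35. With normexp miR-877-5p turned to -0.36, and its ratio to miR-484 was 0.071, against 3.50 in the authors' processed values. No cause was tested. Leaving out each array gave 6 to 8 members called, miR-877-5p among them each time, beside 292 to 326 of all miRNAs. The replicate numbers did not pair the arrays (correlations of deviations 0.24, 0.38, -0.46 and -0.46). With the replicate block 7 members and 308 of all miRNAs were called, miR-320a being lost, and the ratio of miR-320c to miR-320b kept its 0.95 with an exact p of 0.125, the smallest that 4 pairs allow. Permuting within array rows gave it an exact p of 0.0625, and within alike arrays an exact p of 0.0556, with the change at 0.95 in both. Under averaging of log2 probe values, miR-877-5p and miR-1226-5p had no value, since all their probes were at the floor.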
